A study of Bos grunniens with 18 samples.

Results

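The 7 enzymes of heme synthesis *ALAS2*, *ALAD*, *UROS*, *UROD*, *CPOX*, *PPOX* and *FECH*, and *ATP5IF1*, the inhibitory factor of the mitochondrial ATP synthase, were followed through the reproductive stages of the yak. These 8 genes were taken by their names from the 20607 genes of the deposited table, and all 8 passed the filter on low counts, the lowest value of any of them being 115 counts. Whole blood of adult female yaks (*Bos grunniens*) aged 4 to 8 years was sequenced in anestrus (the Y-A group), in estrus (the Y-E group) and in pregnancy (the Y-P group), with 6 libraries a stage. The study followed 6 cows, whose estrus was synchronised with a progesterone pessary, PGF2α and GnRH before artificial insemination. When the Y-A blood was drawn relative to these hormones is not given in the sources used here, and stage and hormone treatment cannot be told apart. Within a stage the libraries are numbered 1 to 6, but no source used here says whether a number marks 1 cow.

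Heme is built by a chain of enzymes that begins and ends in the mitochondrion, and its rate-limiting entry is the joining of glycine and succinyl-CoA by ALA synthase. That entry step has a pair of genes: *ALAS1*, used by nearly all cells, and *ALAS2* on the X chromosome, used by developing red cells; the later enzymes are shared, and their genes are active in all cells. *ATP5IF1* binds the ATP synthase and stops it from splitting ATP, and red cell precursors are known to need it for heme synthesis. In blood, reticulocytes are the young red cells that still hold RNA and mitochondria, while mature red cells of mammals have lost both.

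The libraries held 30247267 to 48401076 counts. Y-E replicate 6 stood apart from the other libraries of its stage: hemoglobin genes took 8.36% of its counts, against 0.0899% to 0.713% in the other 5 Y-E libraries, 3.1% to 16.7% in Y-A and 0.0272% to 0.376% in Y-P. The study's own sample lists for the RNA data hold every library but this one, and no source used here says why. Calls of the 8 genes that changed without that library, and medians that moved by over 1.5 times, are given both ways. Of the listed markers of blood cells the table named 12 of 20 for reticulocytes, 8 of 10 for neutrophils, 7 of 8 for monocytes, 8 of 8 for B cells, 5 of 10 for T cells and 6 of 10 for platelets, and none of those named was at 0 in every library. The summed level of 12 reticulocyte markers ranged from 119.7 to 1215 CPM in Y-A. It ranged from 56.0 to 520.8 CPM in Y-E and from 57.9 to 90.8 CPM in Y-P. Replicate 6 was the highest library of each stage, and without it the Y-E sums ran from 56.0 to 104.2 CPM. These sums are counts relative to the library total, while CPM of single genes are counts relative to the TMM-scaled library size. Genes are named as called where edgeR's quasi-likelihood test gave an adjusted p under 0.05 (Benjamini-Hochberg over all genes tested) with a log2 fold change of 1 or more in size. By that rule 6 of the 12 reticulocyte markers were called lower in Y-P vs. Y-A and 4 in Y-P vs. Y-E. Of all genes tested, 1.09% and 2.22% were called lower there. In Y-E vs. Y-A 0 were called, beside 0.0138% of all genes. There 3 markers had an unadjusted p under 0.05, DESeq2 called 0 and limma 1 (pseudocount of 1) or 0 (0.1). In Y-P vs. Y-A DESeq2 called 3 and limma 4 or 6, and in Y-P vs. Y-E DESeq2 2 and limma 1 at both pseudocounts. Without Y-E replicate 6 edgeR called 7 in Y-P vs. Y-A, 1 in Y-P vs. Y-E and 2 in Y-E vs. Y-A. The shares of all genes were then 1.21% and 2.12% called lower and 0.123% called in either direction. Of the other lists, 5 of 7 neutrophil markers and 4 of 5 platelet markers were called lower in Y-P vs. Y-E (2.22% of all genes). In Y-P vs. Y-A 4 of 5 platelet markers were (1.09%). DESeq2 called 6, 4 and 4 of these, and limma 5, 2 and 1 (pseudocount of 1) or 3, 3 and 2 (0.1). In Y-E vs. Y-A 0 of 7 neutrophil markers were called, with 3 at an unadjusted p under 0.05 and 1 called by DESeq2. Without Y-E replicate 6 edgeR called 2 of 8 neutrophil markers higher there. No T cell, B cell or monocyte marker was called by edgeR in any comparison. All 5 T cell markers tested had an unadjusted p under 0.05 in both comparisons with Y-P, as did at most 2 of 8 B cell and 2 of 7 monocyte markers in any comparison. In Y-P vs. Y-E limma called 1 T cell and 1 B cell marker and DESeq2 none. The part of these cell types in the results on the 8 genes was not tested, and fewer cells of a type cannot be told apart from less RNA per cell in whole blood.

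*ALAS2*, the erythroid ALA synthase, and *ATP5IF1* had the highest median FPKM (fragments scaled by gene length and library size) of the 8 genes in every stage. *ALAS2* and *ATP5IF1* were lower in pregnancy than in anestrus, *ALAD* was lower by a smaller fold, and *UROS*, *CPOX*, *PPOX* and *FECH* did not pass the threshold in that comparison. The gene *ALAS2* (*ENSBGRG00000007653*) lies on chromosome X from 100295297 to 100317451 on the minus strand, in the coordinates of the deposited table. Its level in Y-A ran from 382 CPM in replicate 3 through a median of 1451 CPM to 9945.5 CPM in replicate 6. In Y-E its lowest, median and highest values were 89.6, 135 and 4261 CPM, the highest being replicate 6, and without that library the highest was 159 CPM. In Y-P they were 37.6, 60.5 and 117 CPM. All 6 Y-P libraries thus lay below all 6 Y-A libraries, and 5 of the 6 Y-E libraries did as well; the Y-P and Y-E ranges overlapped, with 5 of the 6 Y-P libraries below every Y-E library. Between the medians, *ALAS2* was 24.0-fold higher in Y-A than in Y-P and 10.7-fold higher in Y-A than in Y-E.

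**Figure D1:**
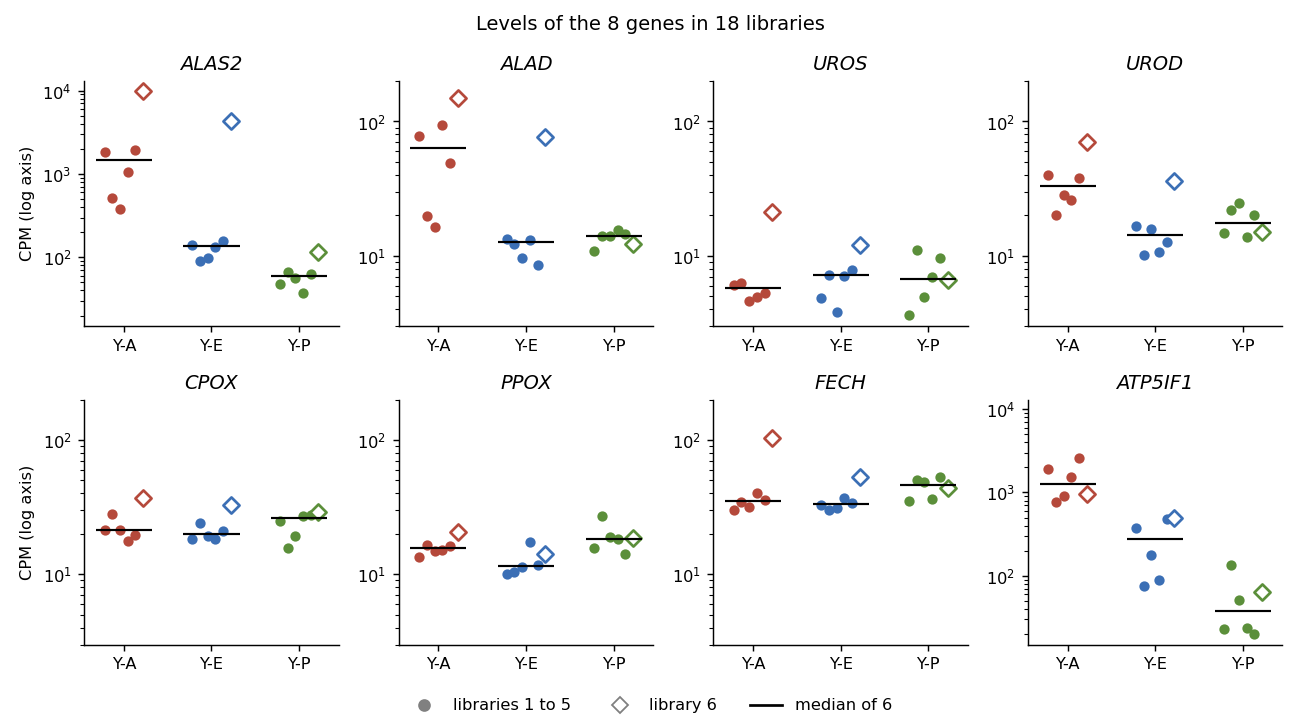
Level of each gene in CPM (log axis) in the 6 libraries of each group, pregnancy being Y-P, estrus Y-E and anestrus Y-A; diamonds are the libraries numbered 6, filled points the others, and lines the medians. The panels of *ALAS2* and *ATP5IF1* share one axis range and the 6 other panels another; *ALAS2* spans 37.6 to 9945.5 CPM, and its diamond is the highest point of each stage.

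*ATP5IF1* (*ENSBGRG00000013915*) lies on chromosome 2 from 12602208 to 12611995 on the plus strand. Its values in Y-A were 758, 1253 and 2591 CPM (lowest, median, highest). Those in Y-E were 75.9, 275 and 491 CPM, and those in Y-P 20.2, 37.7 and 134 CPM. Without Y-E replicate 6, its highest library, the Y-E median was 175.8 CPM. In Y-A, unlike *ALAS2*, it was highest in replicate 5, and replicate 6, at 955 CPM, was the 4th of its stage. All 6 Y-E and all 6 Y-P libraries lay below every Y-A library, and 5 of the 6 Y-P libraries lay below every Y-E library. The exception was Y-P replicate 2, at 134 CPM. Between the medians, *ATP5IF1* was 33.2-fold higher in Y-A than in Y-P and 7.29-fold higher in Y-E than in Y-P (4.66-fold without Y-E replicate 6). By median FPKM it ranked 13th of the 20607 genes in Y-A, 108th in Y-E (204th without replicate 6) and 982nd in Y-P, and *ALAS2* ranked 93rd, 1292nd and 3165th.

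*ALAD*, which joins 2 molecules of aminolevulinic acid to porphobilinogen (*ENSBGRG00000006128*, chromosome 7 from 40904774 to 40912581, minus strand), was measured at 16.4, 63.9 and 149 CPM in Y-A (lowest, median, highest). It was at 8.52, 12.6 and 76.9 CPM in Y-E, where replicate 6 gave the highest value and the other 5 reached at most 13.2 CPM. In Y-P it was at 10.77, 14.04 and 15.57 CPM, all below the lowest Y-A library. *UROD*, which removes carboxyl groups from uroporphyrinogen (*ENSBGRG00000003234*, chromosome 3 from 110054351 to 110058590, minus strand), was at 20.1, 33.1 and 70.4 CPM in Y-A, at 10.1, 14.2 and 36.0 CPM in Y-E and at 13.9, 17.6 and 24.5 CPM in Y-P. Its Y-P and Y-A ranges overlapped, with 3 of the 6 Y-P libraries below every Y-A library. Both genes were again highest in replicate 6 of Y-A and of Y-E, but not of Y-P.

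The remaining enzymes varied less between stages. *UROS*, which closes the ring of uroporphyrinogen (*ENSBGRG00000008669*, chromosome 25 from 49506483 to 49536473, minus strand), had the lowest median FPKM of the members in every stage, with stage medians of 5.72, 7.16 and 6.76 CPM in Y-A, Y-E and Y-P; its highest value was 21.2 CPM in Y-A replicate 6, and its highest in Y-E and Y-P were 12.03 and 10.99 CPM. *CPOX*, which turns coproporphyrinogen into protoporphyrinogen (*ENSBGRG00000002215*, chromosome 1 from 46129945 to 46144327, minus strand), had medians of 21.40, 20.06 and 26.03 CPM and lay between 15.8 and 37.2 CPM in all 18 libraries. *PPOX*, which oxidises protoporphyrinogen (*ENSBGRG00000001124*, chromosome 3 from 9166753 to 9170134, plus strand), was at 13.4, 15.7 and 20.8 CPM in Y-A, at 10.1, 11.5 and 17.3 CPM in Y-E and at 14.2, 18.5 and 26.9 CPM in Y-P. *FECH*, the ferrochelatase that puts iron into the ring (*ENSBGRG00000011304*, chromosome 21 from 55548952 to 55592141, minus strand), was at 30.2, 35.1 and 103 CPM in Y-A, at 30.2, 33.1 and 52.8 CPM in Y-E and at 35.2, 46.2 and 52.9 CPM in Y-P, with the Y-A and Y-E maxima again in replicate 6. No member overlaps another gene of the table on either strand.

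Comparing Y-P with Y-A, pregnancy with anestrus, 3 of the 8 genes were called, all lower: *ALAS2*, *ALAD* and *ATP5IF1*. Of all genes tested, 1.43% were called in that comparison and 1.09% were called lower. *ALAS2* fell by 5.33 on the log2 scale (SE 1.13, adjusted p = 0.0125). Without Y-A replicate 6 it stood at −4.17 and was still called (adjusted p = 0.0246). *ATP5IF1* fell by 4.78 (SE 0.60, adjusted p = 0.000687). *ALAD* fell by 2.33 (SE 0.57, adjusted p = 0.0246). *UROD* was at a log2 fold change of −1.01 (SE 0.31, adjusted p = 0.062), and it was called only where Y-E replicate 6 (adjusted p = 0.0274) or Y-A replicate 2 (adjusted p = 0.0453) was left out or where DESeq2 was used (adjusted p = 0.0177). Without Y-E replicate 6, 4 of the 8 genes were called lower, against 1.21% of all genes tested. The call of *ALAD* was lost without Y-P replicate 2 (adjusted p = 0.0529). Groups that do not overlap, with every Y-P library below every Y-A library, were seen in *ALAS2*, *ALAD* and *ATP5IF1*, and such a pattern was found in 2.32% of all genes tested. The other 4 enzymes were at −0.18 (*UROS*), −0.02 (*CPOX*), 0.22 (*PPOX*) and −0.05 (*FECH*), with adjusted p between 0.458 and 0.975, and for *UROS*, *CPOX* and *FECH* the sign turned under scaling by library size alone. That scaling moved the median of all genes from 0.03 to 0.19.

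Comparing Y-E with Y-A, estrus with anestrus, none of the 8 genes was called over all 18 libraries, and 0.0138% of all genes tested were called. *ATP5IF1*, *UROD*, *ALAD* and *PPOX* (4 of 8) had an unadjusted p under 0.05, as did 900 of the 14508 genes tested, and DESeq2 called 1 of the 8, *ATP5IF1* (adjusted p = 0.00925), and limma 0. *ATP5IF1* had a log2 fold change of −2.37 (SE 0.54, adjusted p = 0.280), and its groups did not overlap, which held for 0.172% of all genes tested in the direction lower. *ALAS2* was at −1.68 (SE 0.96, adjusted p = 0.898), *ALAD* at −1.61 (SE 0.55, adjusted p = 0.536) and *UROD* at −1.12 (SE 0.32, adjusted p = 0.374). Without Y-E replicate 6 these 3 enzymes were called, against 0.123% of all genes: *ALAS2* was at −4.40 (adjusted p = 0.0139), *ALAD* at −2.59 (adjusted p = 0.0167) and *UROD* at −1.49 (adjusted p = 0.035). *ATP5IF1* remained under the threshold there at −2.60 (adjusted p = 0.0718), although it had the lowest unadjusted p of the 8 genes over the 18 libraries. All 5 remaining Y-E libraries lay below every Y-A library in *ALAS2*, *ALAD*, *UROD* and *ATP5IF1*, against 0.82% of all genes tested. For *UROS*, *CPOX* and *FECH* the log2 fold changes were −0.17, −0.12 and −0.34, and none of them was called in either set of libraries.

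**Figure D2:**
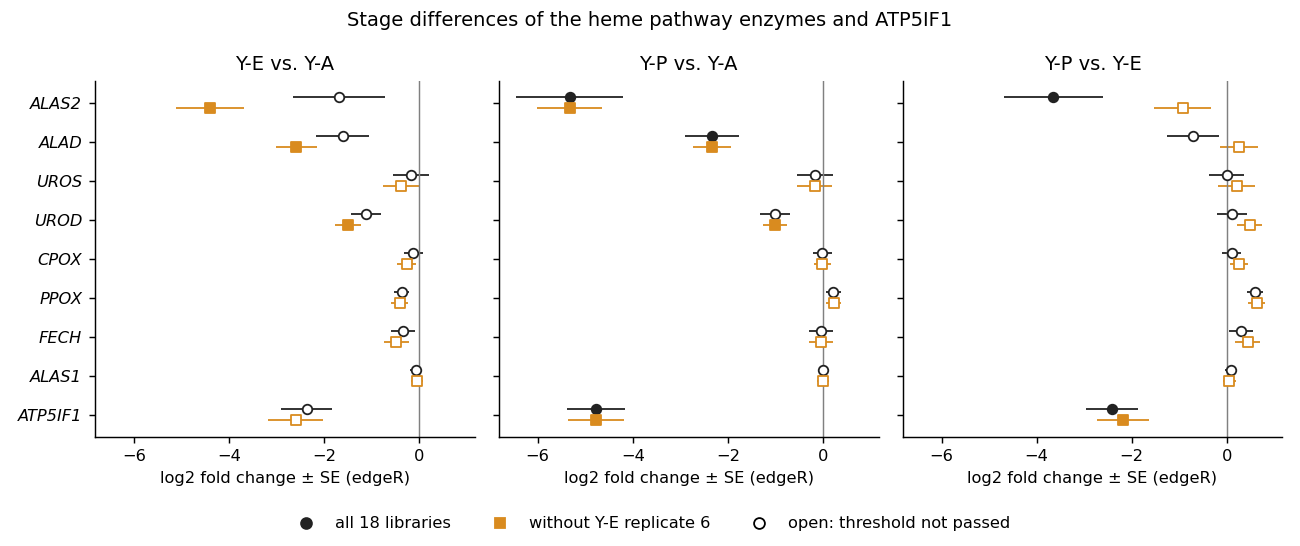
Log2 fold change (edgeR, ± SE) of the 7 enzymes, *ALAS1* and *ATP5IF1* in the 3 comparisons, over all 18 libraries (circles) and without Y-E replicate 6 (squares); filled marks passed both thresholds. *ALAS2* moves from −1.68 to −4.40 in Y-E vs. Y-A and from −3.65 to −0.93 in Y-P vs. Y-E when that library is left out, while its value in Y-P vs. Y-A stays at −5.33.

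Comparing Y-P with Y-E, pregnancy with estrus, *ALAS2* and *ATP5IF1* were called lower, 2 of the 8 genes, where 2.67% of all genes tested were called and 2.22% were called lower. *ATP5IF1* fell by 2.41 on the log2 scale (SE 0.54, adjusted p = 0.0066), and by 2.18 without Y-E replicate 6 (adjusted p = 0.0142), when it was the 1 member called, against 2.12% of all genes called lower. *ALAS2* fell by 3.65 (SE 1.04, adjusted p = 0.0249), and this value rested on Y-E replicate 6. Without that library it was −0.93 (adjusted p = 0.341), and the call was also lost without Y-P replicate 4 (adjusted p = 0.0523) or Y-P replicate 5 (adjusted p = 0.0504). With the library number as a block it was called both over all libraries (−1.68, adjusted p = 0.0313) and without Y-E replicate 6 (−1.27, adjusted p = 0.0371). No member had groups that did not overlap in this comparison, against 3.84% of all genes tested in the direction lower and 2.19% higher. *PPOX* was the one member that passed the adjusted p in the direction higher, at 0.59 (SE 0.17, adjusted p = 0.0224), which is under the fold threshold; at the adjusted p alone 5.77% of all genes were higher. It was 1.60-fold higher in Y-P than in Y-E between the medians and higher in Y-P in each of the 6 numbers, and without Y-E replicate 6 it stood at 0.63 (adjusted p = 0.0246), with 5.66% of all genes higher at the adjusted p. *FECH*, *CPOX*, *UROD* and *UROS* were between −0.01 and 0.30 with adjusted p from 0.478 to 0.993, and *ALAD* was at −0.72 (adjusted p = 0.415). Leaving out both Y-A and Y-E libraries numbered 6, a choice made after seeing the data, put *FECH* at 0.42 (edgeR, adjusted p = 0.0394). That is under the fold threshold, and 714 of the 14590 genes tested there passed the adjusted p in the direction higher.

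Within the library numbers, *ALAS2* went down from Y-A to Y-E and again to Y-P in 6 of 6 numbers, and *ATP5IF1* in 5 of 6, the exception being number 2. *PPOX* did so in 0 of 6, and the other 5 enzymes in 2 of 6 each. Number 6 had the highest *ALAS2* level of its stage at each of the 3 stages, while it ranked 4th, 1st and 2nd in *ATP5IF1*. On the FPKM scale *ALAS2* was above *ATP5IF1* in Y-A replicate 6 (4300 against 1815 FPKM) and Y-E replicate 6 (1972 against 999 FPKM) and below it in every other library.

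**Figure D3:**
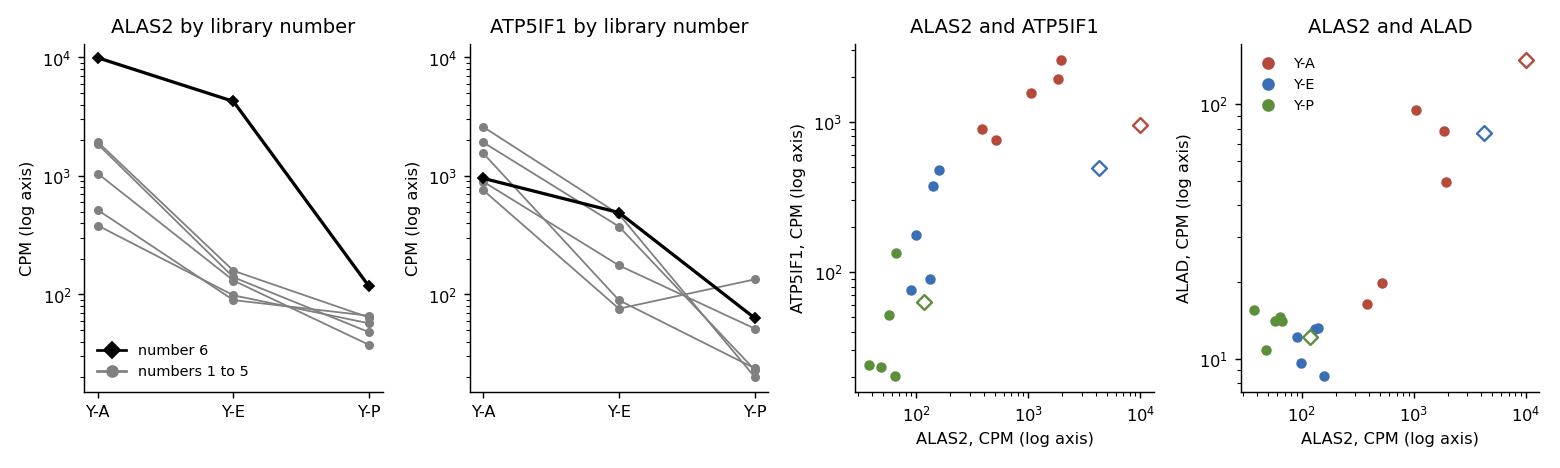
The 2 left panels give *ALAS2* and *ATP5IF1* (CPM, log axis) by stage with a line for each library number, number 6 in black; the 2 right panels plot *ATP5IF1* and *ALAD* against *ALAS2* (CPM, both log axes) in the 18 libraries coloured by stage, with diamonds for number 6. *ALAS2* falls along all 6 lines, and the diamonds of Y-A and Y-E lie to the right of the other points of the *ATP5IF1* panel, and are the highest points of their stages in the *ALAD* panel.

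The question of how erythroid *ALAS2* compares with the enzymes that all cells express was addressed within each library, where the scaling between libraries has no part. On the FPKM scale *ALAS2* was the highest of 8 heme synthesis enzymes (the 7 members and *ALAS1*) in each of the 18 libraries. It took 75.7% to 96.8% of the summed FPKM of these 8 enzymes in Y-A, 48.3% to 95.6% in Y-E (at most 63.3% without replicate 6) and 24.9% to 49.2% in Y-P. Its FPKM was 69.8 times the median of the other 6 member enzymes in Y-A (range 21.4 to 217), 9.84 times in Y-E (6.68 to 148, and at most 10.3 without replicate 6) and 3.06 times in Y-P (1.93 to 5.58), each given as the median of 6 libraries. Against *ALAS1*, the ALA synthase of other cells, it was 75.2-fold higher in Y-A, 7.91-fold in Y-E and 3.10-fold in Y-P by the same measure. *ALAS1* itself (*ENSBGRG00000007235*, chromosome 22 from 13789451 to 13804841, plus strand) had stage medians of 46.2, 41.7 and 45.1 CPM, with log2 fold changes of −0.08, 0.01 and 0.09 in estrus against anestrus, pregnancy against anestrus and pregnancy against estrus (adjusted p = 0.999, 0.975 and 0.706).

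The order of the enzymes by median FPKM changed between the stages. In Y-A it was *ALAS2* (610 FPKM), *UROD* (18.6), *ALAD* (17.2), *FECH* (9.49), *PPOX* (8.85), *ALAS1* (7.78), *CPOX* (7.30) and *UROS* (1.41). The ranges of neighbours overlapped there except for *ALAS2* over *UROD* and *CPOX* over *UROS*. In Y-P it was *ALAS2* (28.6 FPKM), *FECH* (13.8), *PPOX* (11.9), *UROD* (11.7), *CPOX* (10.8), *ALAS1* (8.63), *ALAD* (4.27) and *UROS* (2.19), with *ALAS2*, *ALAD* and *UROS* apart from their neighbours and the others overlapping. In Y-E *ALAS2* (62.9 FPKM) led *FECH* (8.85) and *UROD* (7.67), and *ALAS2* alone was apart from its neighbour; without replicate 6, *ALAD* and *UROS* were apart from theirs as well. *ALAS2* and *UROS* were thus at the ends of the order in each stage, while *FECH* went from 4th in Y-A to 2nd in Y-P and *ALAD* from 3rd to 7th.

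The ratio of *ALAS2* to each other member was tested over libraries as a log2 ratio of counts, with a two-sided exact permutation test and Benjamini-Hochberg adjustment over the 21 combinations of gene and comparison. The ratios share the *ALAS2* counts, so they are not independent of each other. In Y-P vs. Y-A the ratio was lower against all 6 enzymes, from a difference of −2.59 (SE 0.44) against *ALAD* to −4.72 (SE 0.68) against *PPOX*. Each had an adjusted p = 0.00568 by the exact permutation test, for which 0.00216 is the smallest unadjusted p that 6 against 6 libraries can give. In Y-P vs. Y-E it was also lower against all 6, from −1.65 (SE 0.50) against *ALAD* to −2.43 (SE 0.86) against *PPOX* (exact permutation test, adjusted p from 0.00568 to 0.0152), and without Y-E replicate 6 the differences shrank to between −1.15 for *UROS* and −1.62 for *PPOX* and still passed (exact permutation test, adjusted p from 0.00826 to 0.0202). With the library number as a block, the signs of the 6 differences between same-numbered libraries were flipped instead. The smallest unadjusted p this exact sign-flip test can give is 0.03125. By it each of the 6 enzymes had an adjusted p = 0.0386 in Y-P vs. Y-A. In Y-P vs. Y-E 5 of the 6 passed, *CPOX* being the exception (exact sign-flip test, adjusted p = 0.0729). In Y-E vs. Y-A the ratio passed against 3 of 6 enzymes without the block, *UROS* (−2.66, SE 0.84, adjusted p = 0.028), *CPOX* (−2.57, SE 0.98, adjusted p = 0.0357) and *FECH* (−2.46, SE 0.90, adjusted p = 0.0394), all by the exact permutation test. The differences against *PPOX*, *UROD* and *ALAD* there were −2.29 (SE 1.04), −1.52 (SE 0.78) and −0.94 (SE 0.56). Without Y-E replicate 6 all 6 passed. With the library number as a block all 6 also passed by the exact sign-flip test, at its smallest possible p, which shows only that all 6 numbers differed in the same direction. Leaving out any 1 of Y-A replicates 1, 4, 5 or 6 or of Y-E replicates 1 to 5 left 0 of 6, with differences that stayed negative, as for *UROS* at −2.54 when Y-A replicate 1 was left out and at −2.38 for Y-E replicate 2.

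**Figure D4:**
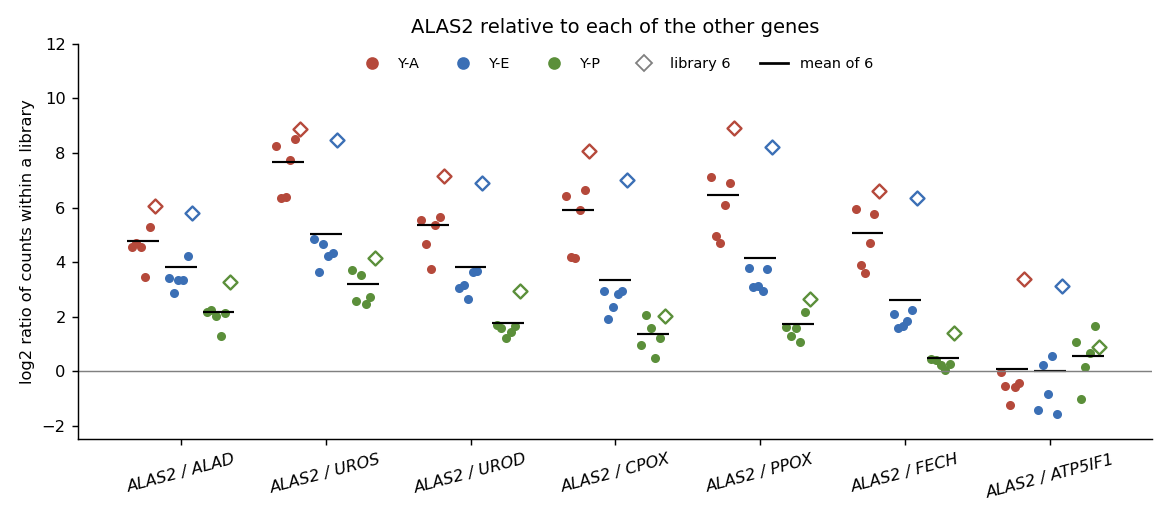
Log2 ratio of *ALAS2* counts to the counts of each other member within a library, for the 6 libraries of each stage, with diamonds for the libraries numbered 6 and lines for the means. The Y-P points lie below all Y-A points for each of the 6 enzymes, and the ratio to *ATP5IF1* has means between 0.01 and 0.56 at all 3 stages.

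Against *ATP5IF1* the ratio passed in no comparison over the 18 libraries. The difference was −0.08 (SE 0.98) in Y-E vs. Y-A, 0.47 (SE 0.77) in Y-P vs. Y-A and 0.55 (SE 0.81) in Y-P vs. Y-E, with p = 0.911, 0.584 and 0.502 by the exact permutation test before adjustment. These SEs leave room for differences of over 1 on the log2 scale, so the pair cannot be said to have moved alike. Without Y-E replicate 6 the difference in Y-P vs. Y-E was 1.17 (SE 0.57, exact permutation p = 0.0693). Without Y-A replicate 6 the difference in Y-P vs. Y-A was 1.13 (SE 0.42, exact permutation p = 0.0325, adjusted p = 0.0525), and without both Y-A and Y-E libraries numbered 6, a choice made after seeing the data, the same difference passed (exact permutation test, adjusted p = 0.0359).

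Over the 18 libraries the genes whose log2 CPM had the highest Pearson r with *ALAS2*, out of 14505, were *MARCHF2* (0.972), *SEMA6B* (0.971), *ENSBGRG00000011277* (0.960), *ENSBGRG00000026382* (0.957) and *HEMGN* (0.952), the gene of hemogen, a nuclear protein of red cell precursors. Of the members, *ALAD* was at 0.904 (28th), *UROD* at 0.823 (75th) and *ATP5IF1* at 0.821 (79th), while *UROS*, *FECH*, *CPOX* and *PPOX* were at 0.429, 0.393, 0.351 and 0.0349. The points share their libraries and the stage, and those numbered 6 have much weight: without them, over 15 libraries, *ATP5IF1* was at 0.930 (8th) and *ALAD* at 0.827, but *UROS*, *CPOX* and *FECH* were at −0.183, −0.184 and −0.353. With the stage means subtracted, *SEMA6B* (0.938), *TRIM10* (0.930), *MARCHF2* (0.928), *ENSBGRG00000011933* (0.926) and *RHAG* (0.921), a red cell membrane protein, were closest to *ALAS2*. By that measure *ALAD* was at 0.874, *UROD* at 0.843, *FECH* at 0.746 and *UROS* at 0.670, and *ATP5IF1* was at 0.420. The libraries numbered 6 are among these points, and this measure was not taken without them, so the values may rest on those libraries. The genes closest to *ATP5IF1* over the 18 libraries were *HBM*, a globin gene (0.949), *ENSBGRG00000014632* (0.931), *ENSBGRG00000024809* (0.926), *ENSBGRG00000026299* (0.922) and *ENSBGRG00000011277* (0.921).

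Of the other genes of heme synthesis, transport and breakdown, 21 of the 24 listed were tested. In Y-P vs. Y-A 2 of the 21 passed the adjusted p, as did 5.83% of all genes tested, and both were called lower: the mitochondrial glutathione carrier *SLC25A39* (−3.08, adjusted p = 0.00989) and the biliverdin reductase *BLVRB* (−2.78, adjusted p = 0.00777). *SLC25A39* was at 145, 424 and 1260 CPM in Y-A and at 48.2, 62.7 and 95.1 CPM in Y-P. *BLVRB* was at 51.3, 61.4 and 302 CPM and at 11.0, 19.8 and 26.1 CPM, so that in both genes the groups did not overlap. In that comparison 1.09% of all genes tested were called lower, and 2.32% had every Y-P library below every Y-A library. In Y-E vs. Y-A 0 of 21 passed by edgeR over all libraries, or by DESeq2 or limma, with 3 at an unadjusted p under 0.05. There 0.0207% of all genes passed by edgeR. Without Y-E replicate 6 *SLC25A39* (−2.80, adjusted p = 0.0194) was called by edgeR, as were 0.123% of all genes. In Y-P vs. Y-E the iron importer mitoferrin-1, *SLC25A37*, was lower by less than the fold threshold (−0.71, adjusted p = 0.00252), with 8.68% of all genes lower at the adjusted p, and *GLRX5*, of iron-sulfur cluster assembly, was higher (0.59, adjusted p = 0.0422, and 0.0816 without Y-E replicate 6). *TMEM14C*, a carrier of protoporphyrinogen, had the highest mean FPKM of the list (128) and log2 fold changes of −0.21, 0.06 and 0.27 in estrus against anestrus, pregnancy against anestrus and pregnancy against estrus. The list's median log2 fold changes were −0.06, −0.03 and −0.02, beside −0.01, 0.03 and 0.04 over all genes tested.

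The ATP synthase, the target of *ATP5IF1*, was represented by 9 tested genes of 19 listed. By edgeR 0 of the 9 passed the adjusted p in Y-E vs. Y-A and 0 in Y-P vs. Y-A, with 0 and 3 at an unadjusted p under 0.05. DESeq2 passed 0 in both and limma 0 and 4, none of them called. In Y-P vs. Y-A limma passed 2205 (pseudocount of 1) or 1799 (0.1) of all 14508 genes. In Y-P vs. Y-E the F1 alpha subunit *ATP5F1A* (0.36, adjusted p = 0.0364) and the assembly factor *ATPAF1* (0.46, adjusted p = 0.0413) were higher, both under the fold threshold. Of all genes tested, 5.77% were higher there at the adjusted p. DESeq2 passed 2 and limma 5 of the 9, where limma passed 3187 or 2788 of all genes. *ATP5F1B*, the F1 beta subunit, had medians of 365, 352 and 404 CPM in Y-A, Y-E and Y-P and adjusted p of 0.292 in Y-P vs. Y-A and 0.193 in Y-P vs. Y-E. The list's median log2 fold changes were −0.07, 0.19 and 0.25, beside −0.01, 0.03 and 0.04 over all genes tested, and *ATP5IF1* had −2.37, −4.78 and −2.41. On the FPKM scale *ATP5IF1* was 7.37 to 26.3 times *ATP5F1A* in Y-A, 0.82 to 5.05 times in Y-E (median 2.97, and 1.97 without replicate 6) and 0.135 to 1.13 times in Y-P (median 0.293), so the inhibitor's transcript was above that of the subunit in all Y-A libraries and below it in 5 of the 6 Y-P libraries.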

How the data were processed

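Whole blood of 6 cows was sampled into EDTA tubes with TRIzol LS, and poly(A) libraries with a strand-marking step were sequenced. The authors trimmed the reads with cutadapt 1.9, aligned them with HISAT2 2.2.1 to the *Bos grunniens* genome under Ensembl identifiers and estimated expression with StringTie 2.1.6 and ballgown. They deposited FPKM values (scaled by gene length and library size) and whole-number counts for 20607 genes in 18 libraries; how the deposited counts were made is not given in the sources used here. Replicates were not pooled. Levels are CPM after TMM normalization, computed from the counts. Summed marker levels are CPM of the library total, without TMM.

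Tests of all genes used the quasi-likelihood method of edgeR 4.0.16 under R 4.3.3 (filterByExpr, TMM, stage as the only term, all 18 libraries in 1 fit), with Benjamini-Hochberg adjustment over the 14508 genes tested (14653 without Y-E replicate 6). A call needed an adjusted p under 0.05 with a log2 fold change of 1 or more in size. The SE is the fold change divided by the root of the F statistic. A fitted fold change follows the mean of a group, so a single high library moves it more than it moves the median. Each p-value sets a difference against the spread between libraries. The main fit and the unblocked permutation tests take the 18 libraries as independent, although the study followed 6 cows. Alternatives used DESeq2 1.42.0, limma 3.58.1 on log2(FPKM + 1) and log2(FPKM + 0.1), other scalings, no filter, the replicate number as a block and leaving out each library. Ratios used counts plus 0.5 with exact permutation tests, or exact sign-flip tests with the block, in Python 3.11.15 and scipy 1.17.1. The edgeR step was tested on simulated counts. Figures were drawn with matplotlib 3.10.9.

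The members and gene lists were chosen with earlier results of these data known. Genes named beyond the members were set by rule: *ALAS1*; of the heme pathway and ATP synthase lists, each gene past the adjusted p (at most 4 per list and comparison) and the 2 of highest mean FPKM; and the 5 genes closest to *ALAS2* and to *ATP5IF1*. A few genes are not reported here and were left out of the lists, orders and correlations, but not of the fits.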

Additional observations from a re-analysis of the deposited data

Results flagged for a closer look

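In 24 groups of 6 libraries (8 genes in 3 stages), 8 had a library whose gap to the nearest of the others, divided by the range of the group, exceeded Dixon's 95% critical value for 6 samples. That value is exceeded in about 1 in 20 independent groups of normally distributed values. The CPM here were not log-transformed and the 24 groups share the same 18 libraries, so 8 of 24 cannot be set against that rate. All 8 were libraries numbered 6, and each was the highest of its stage.

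*ALAS2* had such a library in each stage, at 9945.5 CPM in Y-A replicate 6 (the next library had 1935.3 CPM), at 4261.1 CPM in Y-E replicate 6 (next 158.57 CPM) and, in Y-P replicate 6, at 116.88 CPM (next 66.145 CPM). *FECH* had one at 103.34 CPM in Y-A replicate 6 (next 40.597 CPM) and at 52.802 CPM in Y-E replicate 6 (next 36.869 CPM). *UROS* had one at 21.229 CPM in Y-A replicate 6 (next 6.2576 CPM). *ALAD* and *UROD* had one in Y-E replicate 6, at 76.923 CPM (next 13.243 CPM) and 36.031 CPM (next 16.783 CPM). *CPOX*, *PPOX* and *ATP5IF1* had no such library in any stage. The summed reticulocyte markers were highest in the same libraries, which held 1215 (Y-A), 520.8 (Y-E) and 90.8 (Y-P) summed CPM, and their part in these values was not tested.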

How the results depend on the processing

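The alternatives to the test of the 8 genes were the scaling, the filter, the tool, the fitted stages, the library number as a block and each library left out. Leaving out both Y-A and Y-E libraries numbered 6 was added after seeing the data. In Y-P vs. Y-A the calls of *ALAS2* and *ATP5IF1* were kept under every alternative run, while the number of members called lay between 2 and 4 with 1 library left out and *ALAS2* between −5.58 and −4.17. In Y-E vs. Y-A the members called became 1 with DESeq2 (*ATP5IF1*, −2.36), 3 with the block and Y-E replicate 6 left out (*ALAS2* at −3.26), 3 without both libraries numbered 6 (*ALAS2* at −3.22) and 0 to 3 with 1 library left out, where *ALAS2* ranged from −4.40 to −0.55. In Y-P vs. Y-E they became 1 with limma at either pseudocount (*ALAS2* at −1.63 and −1.65, not called), 1 with the block and Y-E replicate 6 left out (*ALAS2* called, *ATP5IF1* not, at −1.99), 1 without both numbered 6 (*ALAS2* not called, −0.95) and 1 to 2 with 1 library left out, where *ALAS2* ranged from −3.90 to −0.93 and *ATP5IF1* from −2.94 to −2.18. The number of enzymes whose ratio to *ALAS2* passed in Y-E vs. Y-A became 6 with the block, 6 without both numbered 6 and 0 to 6 with 1 library left out. The cause of these shifts was not tested.

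Signs of log2 fold changes near 0 turned as follows. *UROS* in Y-E vs. Y-A was at 0.18 without both numbered 6 (−0.38 to 0.38 with 1 library left out). In Y-P vs. Y-A *UROS* was at 0.022 (library size only), 0.10 and 0.17 (limma) and 0.37 (both numbered 6 left out), with −0.34 to 0.37 over single libraries. *CPOX* was there at 0.16, 0.18, 0.20 and 0.12 in the same order, at 0.018 with the block and at 0.016 with the block and Y-E replicate 6 left out, with −0.092 to 0.12 over single libraries. *FECH* was there at 0.14, 0.27, 0.29 and 0.34, at 0.10 with the block and at 0.11 with the block and Y-E replicate 6 left out, with −0.15 to 0.34. In Y-E vs. Y-A *CPOX* ranged from −0.27 to 0.027 and *FECH* from −0.48 to 0.048 over single libraries. In Y-P vs. Y-E *ALAD* was at 0.18 with the block and Y-E replicate 6 left out and at 0.24 without both numbered 6 (−0.89 to 0.26), and *UROS* at 0.14 (library size only), 0.011 (hemoglobin genes left out), 0.11 and 0.17 (limma), 0.061 (block), 0.038 (block, Y-E replicate 6 left out), 0.0045 (only the 2 stages) and 0.19 (both numbered 6 left out), with −0.17 to 0.21.

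With the library number as a block, *ALAS2* was at −2.66 in Y-E vs. Y-A (adjusted p = 0.0685, edgeR), −4.34 in Y-P vs. Y-A and −1.68 in Y-P vs. Y-E, and the block over all 18 libraries changed no call of a member. Same-numbered libraries had correlations of their deviations from −0.0409 to 0.434, and 6 of 6, 4 of 6 and 4 of 6 correlated best with their own number for estrus against anestrus, pregnancy against anestrus and pregnancy against estrus, a hint from the data and not the design. The lowest value of a member was 115 counts in a library. Over all genes, the number called in Y-E vs. Y-A was 2, and became 9 with DESeq2, 11 with the block, 12 without both numbered 6, 18 without Y-E replicate 6 and 34 with the block and without that library.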

Other observations

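After the stage means were subtracted, the genes with the highest Pearson r with *ATP5IF1* over the 18 libraries were *BCL2L11* (0.854), *EGR2* (0.830), *ATF3* (0.799), *ENSBGRG00000026299* (0.791) and *ACKR2* (0.783), and *ALAS2* stood at 0.420, the 690th of 14505. *EGR2* and *ATF3* are known as genes of the early response to stimuli, and *BCL2L11* promotes cell death. None of these 5 genes was among the 5 closest to *ALAS2* by the same measure. The points share their libraries, and these values are a description of the spread within stages.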
